A study of Mus musculus with 47 samples.

Results

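The genes described here are 6 genes of the formative and primed epiblast, Fgf5, Otx2, Pou3f1, Hesx1, Zic2 and Zic5. They were taken by name, with no expression value in the rule, from the 35856 gene symbols of the deposited table, and all 6 were found. The choice was made with earlier results of these data known. Shares of all genes given beside counts of the 6 are thus a reference and not a test. Their level is given as TPM, a transcript abundance scaled for transcript length and for depth, in each of the 16 combinations of line, stage and treatment.

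As background, the epiblast of the mouse embryo leaves the naive state around implantation and passes through formative and then primed pluripotency before it forms the germ layers, and FGF and ERK signalling drives that transition. Fgf5 encodes a secreted FGF ligand and is the classical marker of the post-implantation epiblast. Otx2 is a homeodomain factor that redirects enhancer use at the exit from the naive state and later patterns the forebrain and midbrain. Pou3f1, also called Oct6, is a POU-domain factor of the epiblast that also promotes neural fate. Hesx1 is a homeobox repressor of the anterior neural plate and pituitary, and Zic2 and Zic5 are zinc-finger factors of the epiblast and the dorsal neural tube. PRC2, the complex perturbed in the study, places a repressive methyl mark on histones at developmental genes rich in CpG.

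Polyadenylated RNA was sequenced with strand-specific libraries of neural progenitor cultures (NPC) and of the mouse embryonic stem cells (ESC) they came from. All 4 lines were C57BL/6 and expressed Tir1, the plant protein that targets degron-tagged proteins for destruction in the presence of auxin. The tagged lines, SUZ12-AID, MTF2-AID and AID-JARID2, are called here SUZ12, MTF2 and JARID2, and the untagged line carries Tir1 alone. SUZ12 is a core PRC2 subunit, whereas MTF2 and JARID2 are accessory subunits of 2 separate forms of the complex. Each line was taken with auxin (50 µM indole-3-acetic acid) and untreated, as NPC treated for the 5 days of differentiation and as ESC treated for 12 hours. To make NPC, cells had 72 hours of bFGF at 10 ng/ml, followed by 48 hours of the Hedgehog agonist SAG at 500 nM. ESC medium held LIF (100 U/ml), the GSK3 inhibitor CHIR99021 (3 µM) and PD0325901 (1 µM), which inhibits the MEK kinase below the FGF receptors. There were 3 biological replicates in 15 groups and 2 in SUZ12 NPC with auxin. The number of clones behind a line is not given in the sources used here.

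Depth recovered from the table was 3237115 to 8707922 reads per library. The 12 naive pluripotency genes listed summed to 34.7 to 72.5 TPM in the untreated NPC libraries and to 3238 to 3561 TPM in the 24 ESC libraries, and all 10 neuronal and 9 of 10 neural progenitor genes listed were called higher in untreated untagged NPC than in ESC. The tag acts on protein, so the transcripts of the targeted genes check nothing here. Suz12 averaged 163 TPM in SUZ12 NPC with auxin and 77.8 TPM untreated, Mtf2 24.3 and 21.1 TPM in MTF2 NPC with auxin and untreated, and Jarid2 56.6 and 35.6 TPM in JARID2 NPC with auxin and untreated.

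The 6 genes sit on 3 chromosomes in GENCODE M21 on GRCm38. Fgf5 lies at chr5:98254184-98277030 on the plus strand, and Pou3f1, with its single exon, at chr4:124656807-124660655 on the plus strand. Chromosome 14 holds the other 4, Otx2 at chr14:48657677-48673819 on the minus strand and Hesx1 at chr14:26994416-27002329 on the plus strand. Zic5 at chr14:122456795-122465677 on the minus strand and Zic2 at chr14:122475435-122479852 on the plus strand form a divergent pair of protein-coding genes with 9757 bases between them. The processed transcript 2610035F20Rik lies between them on the minus strand, 235 bases from Zic2, and averaged at most 1.34 TPM in a group. Otx2os1 overlaps Otx2 on the opposite strand over 5112 bases and is listed at 0 in all libraries. Gm2164 overlaps Pou3f1 on the opposite strand over 363 bases and averaged at most 0.274 TPM in a group. Whether the counting used strand is not known from the sources used here.

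RefSeq promoter windows on GRCm38.p6, from 250 bases before to 50 bases after a start of transcription, were found for 4 of the 6 genes, with 4 windows for Otx2 and 1 each for Fgf5, Hesx1 and Zic5. One window per gene is shown, 5′ to 3′ on the gene's strand with every CG dinucleotide in capitals, since PRC2 acts at CpG-rich genes and these windows differ in CG content. For Otx2 the window with the most CG is given.
Fgf5 (chr5:98253934-98254233, plus strand): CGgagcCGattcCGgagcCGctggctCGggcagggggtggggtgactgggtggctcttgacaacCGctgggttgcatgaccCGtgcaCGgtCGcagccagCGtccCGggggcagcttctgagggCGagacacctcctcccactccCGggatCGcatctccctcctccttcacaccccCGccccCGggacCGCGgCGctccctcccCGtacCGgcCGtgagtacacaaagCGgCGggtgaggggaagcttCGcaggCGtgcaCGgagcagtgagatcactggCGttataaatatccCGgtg
Otx2 (chr14:48665060-48665359, minus strand): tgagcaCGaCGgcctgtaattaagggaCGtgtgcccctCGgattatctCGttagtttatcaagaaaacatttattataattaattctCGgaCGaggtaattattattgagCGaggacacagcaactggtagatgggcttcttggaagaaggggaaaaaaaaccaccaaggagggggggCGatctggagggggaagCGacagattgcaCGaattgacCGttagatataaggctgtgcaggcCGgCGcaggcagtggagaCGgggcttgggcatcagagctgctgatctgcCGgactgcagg
Zic5 (chr14:122465609-122465908, minus strand): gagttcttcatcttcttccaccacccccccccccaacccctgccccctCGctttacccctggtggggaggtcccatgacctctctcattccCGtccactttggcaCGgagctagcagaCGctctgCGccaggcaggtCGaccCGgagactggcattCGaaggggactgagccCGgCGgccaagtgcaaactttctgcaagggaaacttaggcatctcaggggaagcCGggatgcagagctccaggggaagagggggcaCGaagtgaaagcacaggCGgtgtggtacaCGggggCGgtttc
Hesx1 (chr14:27000112-27000411, plus strand): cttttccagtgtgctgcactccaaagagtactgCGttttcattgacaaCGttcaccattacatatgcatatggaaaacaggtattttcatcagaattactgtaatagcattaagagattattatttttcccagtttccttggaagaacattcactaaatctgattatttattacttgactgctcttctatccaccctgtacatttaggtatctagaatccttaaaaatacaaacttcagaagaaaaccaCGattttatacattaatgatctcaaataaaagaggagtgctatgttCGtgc

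Fgf5 had 29 CG dinucleotides in its 300 bases, more than 87.1% of the 32851 mouse windows of the same length, whose median was 7. Otx2 had 6 to 16 over its 4 windows, Zic5 had 15 and Hesx1 had 4. The Hesx1 and Otx2 windows lie inside their genes as annotated by GENCODE. All 6 genes were called higher with auxin in JARID2 NPC below, and a link to CG content was not tested. In all, 5 DNA words were searched for on both strands. TAATCC, the core word of OTX factors, occurred 1 time, in the Otx2 window shown, and it occurs in 7.06% of all windows. ATGCAAAT, the octamer of POU factors (1.74% of windows), CTTTGAA of LEF and TCF factors (5.14%), GACCACCC of GLI factors (0.807%) and CACGTG, an E-box (7.15%), were in none of the 7 windows.

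The 6 genes fell into 2 classes by level, apart from Pou3f1, which was in neither. Hesx1, Zic2 and Zic5 were ESC genes: in all 8 ESC groups they averaged 31.7 to 60.5 TPM, 92.6 to 114 TPM and 31.7 to 35 TPM, above every NPC group. Fgf5 and Otx2 were low in ESC, at 0 to 0.548 TPM and 0 to 1.57 TPM over the 24 libraries, and Pou3f1 was at 4.3 to 9.79 TPM there. The 6 thus did not share 1 pattern in these samples, since Hesx1 and both Zic genes were highest in ESC held in naive-type medium. The series holds no formative or primed epiblast sample, so whether the 6 rise together in that state could not be tested. They are called the listed epiblast genes here.

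**Figure D1:**
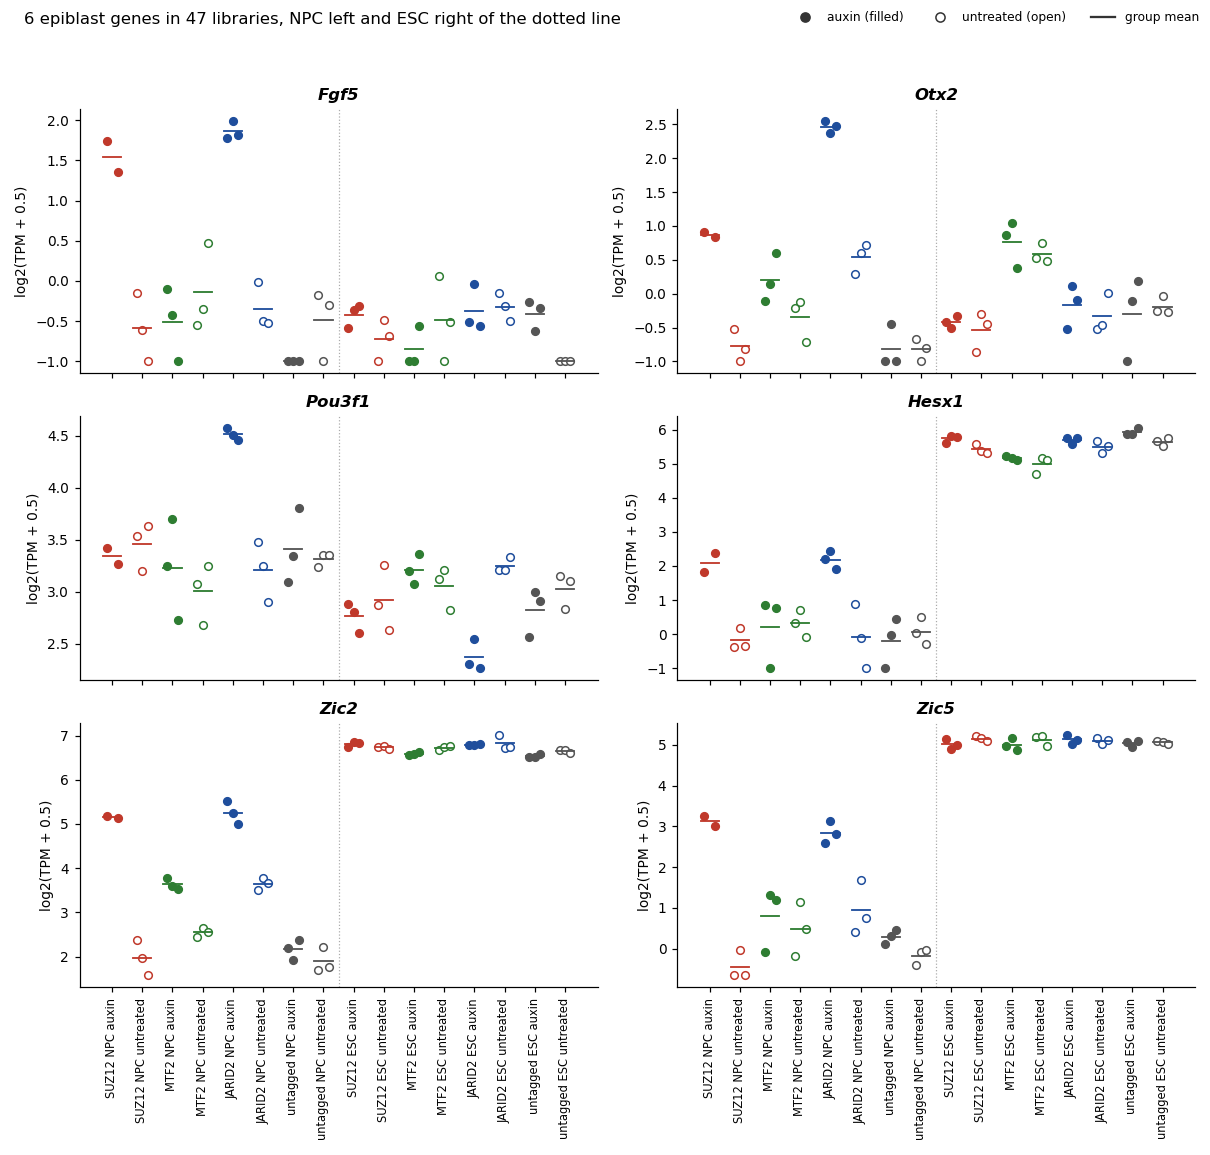
Level of each gene in 47 libraries, as log2(TPM + 0.5), with NPC groups left and ESC groups right of the dotted line. Filled points are auxin and open points untreated libraries, and short lines are group means. Hesx1, Zic2 and Zic5 are highest in ESC, and Fgf5, Otx2 and Pou3f1 are highest in JARID2 NPC with auxin, at 3.14, 5.03 and 22.3 TPM.

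The change of each gene was tested with limma on log2(TPM + 0.5) across all genes that reached 1 TPM in at least 2 libraries of a fit, and "called" means an adjusted p (Benjamini-Hochberg) under 0.05. The pseudocount makes a log2 change understate the fold of the lowest genes. In bulk RNA, fewer cells of a type and less RNA per cell cannot be told apart, and this holds for every difference below.

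In the untagged line without auxin, Zic2, Zic5, Hesx1 and Otx2 fell in NPC, and neither Fgf5 nor Pou3f1 was called. Zic2 had 2.73, 4.16 and 2.9 TPM in NPC, against 102, 101 and 96.9 TPM in ESC. Zic5 had 0.262, 0.453 and 0.474 TPM in NPC, against 33.4, 33.3 and 31.8 TPM in ESC, and Hesx1 0.522, 0.905 and 0.315 TPM in NPC, against 50.1, 45.5 and 53 TPM in ESC. The 2 stages did not overlap in any of these 3 genes, and the share of all genes without overlap was not counted. The log2 changes, NPC minus ESC, were -4.76 ± 0.13 for Zic2 (SE; limma adjusted p = 6.01e-28), -5.23 ± 0.27 for Zic5 (adjusted p = 2.09e-19) and -5.57 ± 0.36 for Hesx1 (adjusted p = 2.93e-16).

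Fgf5 and Otx2 were measured with very few reads in that comparison. Otx2 had 0.126, 0 and 0.0762 TPM in untagged NPC, against 0.334, 0.475 and 0.326 TPM in untagged ESC, from at most 2 reads in an NPC library and 4 to 6 in an ESC library. It was called lower in NPC, with a log2 change of -0.63 ± 0.25 (SE; limma adjusted p = 0.0212), and this call was lost without ESC replicate 2 (-0.56, adjusted p = 0.0734) or without NPC replicate 2 (-0.54, adjusted p = 0.0782). Fgf5 had 3, 0 and 2 reads in NPC and none in ESC, and Pou3f1 had 8.93, 9.69 and 9.74 TPM in NPC, against 8.4, 6.61 and 8.07 TPM in ESC. Neither gene was called (log2 change 0.51, 95% interval -0.05 to 1.07, for Fgf5, and 0.29, interval -0.10 to 0.67, for Pou3f1), and the sign for Pou3f1 turned to -0.03 with median-of-ratios scaling. Pou3f1 was called higher in a fit to the 2 groups alone (0.29, limma adjusted p = 0.0491), and Fgf5 with a pseudocount of 0.1 (1.44, adjusted p = 0.0449) and without NPC replicate 2 (0.76, adjusted p = 0.0204). In the fit reported here, 4 of the 6 genes were called lower and none higher, where 28.5% and 47.6% of the 17760 genes tested were called lower and higher. The median change was 0.28 over all genes and moved to 0.00 with that scaling, under which 50.6% of the called genes were higher, against 62.6% without it.

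Among 16 other genes of the early epiblast, 7 were called higher and 9 lower in untagged NPC, with a median log2 change of -0.88. Those that remain on in neural progenitors stood on the higher side, with 5.61 ± 0.18 for Sox3, a SoxB1 factor of neural progenitors, 4.91 ± 0.15 for the zinc-finger factor Sall2 and 4.77 ± 0.10 for Cdh2, or N-cadherin. Etv5, an ETS factor induced by FGF, fell by 4.03 on the log2 scale, and the de novo DNA methyltransferase gene Dnmt3b by 1.87. All 12 naive genes and all 7 core pluripotency genes were called lower, with medians of -6.65 and -5.54.

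With auxin throughout differentiation, most of these genes rose in the NPC of 2 lines. In JARID2 NPC all 6 were called higher, where 9.28% of the 16469 genes tested were, and in SUZ12 NPC 5 of 6, all but Pou3f1, where 23.9% were. In MTF2 NPC 1 of 6 was called higher, Zic2, where 5.03% of genes were, and in untagged NPC none, where 0% were. No member was called lower with auxin in NPC, where 15.7% of genes were in JARID2, 33% in SUZ12, 3.11% in MTF2 and 0% in the untagged line. In the untagged line limma called none of the 16469 genes, 1180 had an unadjusted p under 0.05 (none of the 6), and voom on recovered reads called 16 genes. Fgf5 met the level filter in NPC only through the auxin libraries of SUZ12 and JARID2, the groups where it was high, so its inclusion was tied to its rise, and the same 5 libraries alone carried it through the filter of the stage comparisons. The median log2 change of the 6 was 1.91 in JARID2, 2.21 in SUZ12, 0.27 in MTF2 and 0.05 in untagged NPC, beside medians over all genes of -0.04, -0.10, 0.03 and -0.02. Median-of-ratios scaling moved the SUZ12 median over all genes to 0.02, and changed the higher share of called genes to 53.9% from 42% in SUZ12, to 50.3% from 37.1% in JARID2 and to 47.3% from 61.8% in MTF2. The same 12 genes and lines were called in each of the other settings and with each library left out in turn.

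**Figure D2:**
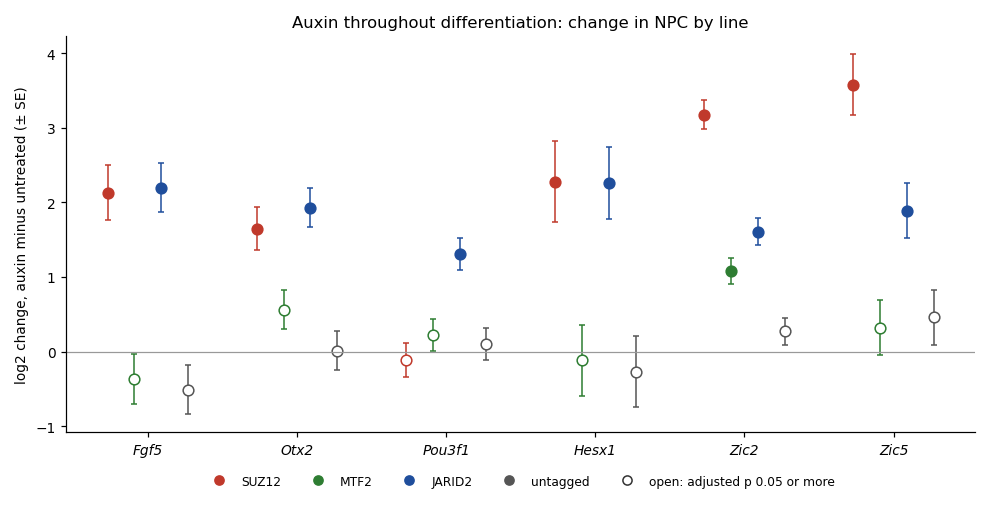
Log2 change with auxin in NPC for each gene and line (limma, ± SE), with filled points for an adjusted p under 0.05 and open points for the rest. SUZ12 and JARID2 stand side by side for Fgf5 at 2.13 and 2.20 and for Hesx1 at 2.28 and 2.26, and apart for Pou3f1, at -0.11 and 1.31.

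Fgf5, the ligand, had 2.93, 3.47 and 3.03 TPM in JARID2 NPC with auxin, against 0.495, 0.209 and 0.195 TPM in untreated JARID2 NPC. It had 2.83 and 2.05 TPM in SUZ12 NPC with auxin, against 0.405, 0.155 and 0 TPM untreated. Each of these 5 auxin libraries was above every other library of the study, the next highest being an untreated MTF2 NPC library at 0.882 TPM. The level rested on 14 to 17 reads per auxin library and 0 to 3 reads per untreated library of those lines. On the log2 scale the change was 2.20 ± 0.33 in JARID2 (SE; limma adjusted p = 2.85e-05) and 2.13 ± 0.37 in SUZ12 (adjusted p = 4.17e-05). MTF2 NPC had 0.433, 0.245 and 0 TPM with auxin and 0.187, 0.284 and 0.882 TPM untreated, which overlap (-0.37, 95% interval -1.05 to 0.32). Untagged NPC was at 0 reads in all 3 auxin libraries, against 0.388, 0 and 0.312 TPM untreated.

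Otx2 reached its highest level in JARID2 NPC with auxin. It had 5.36, 4.68 and 5.04 TPM there, against 0.725, 1.02 and 1.14 TPM in untreated JARID2 NPC. SUZ12 NPC had 1.38 and 1.28 TPM with auxin, against 0.198, 0 and 0.0684 TPM untreated. Neither pair overlapped, and the log2 change was 1.93 ± 0.26 in JARID2 (SE; limma adjusted p = 9.18e-06) and 1.65 ± 0.29 in SUZ12 (adjusted p = 5.86e-05). MTF2 NPC had 0.423, 0.599 and 1.01 TPM with auxin, against 0.365, 0.416 and 0.108 TPM untreated, which was not called (0.56, 95% interval 0.01 to 1.10, adjusted p = 0.21). The order of levels put JARID2 NPC with auxin first at 5.03 ± 0.341 TPM (SD, n = 3), apart from all others. SUZ12 NPC with auxin at 1.33 ± 0.0685 TPM (n = 2) and MTF2 ESC with auxin at 1.23 ± 0.397 TPM (n = 3) followed and overlapped.

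Pou3f1 separated the JARID2 and SUZ12 lines. JARID2 NPC had 23.3, 22.2 and 21.5 TPM with auxin, against 10.6, 9.02 and 6.97 TPM untreated, a log2 change of 1.31 ± 0.21 (SE; limma adjusted p = 7.54e-05). SUZ12 NPC had 10.2 and 9.12 TPM with auxin, against 11.1, 8.66 and 11.9 TPM untreated, a log2 change of -0.11 ± 0.23 (95% interval -0.60 to 0.38). No other library of the study reached the JARID2 auxin values, the next highest being 13.5 TPM in an untagged NPC library with auxin. The other 15 groups averaged 4.69 to 10.6 TPM, and of the 15 pairs of neighbours in the order of all 16 groups, 2 did not overlap. This was not counted over all genes.

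Hesx1, the homeobox repressor, rose to a level far below that in ESC. JARID2 NPC had 4.07, 4.94 and 3.24 TPM with auxin, against 1.33, 0.421 and 0 TPM untreated, and SUZ12 NPC had 3.02 and 4.72 TPM with auxin, against 0.273, 0.628 and 0.283 TPM untreated. These rested on 9 to 16 reads per auxin library and 0 to 4 per untreated library, and in neither line did the groups overlap. The log2 changes were 2.26 ± 0.48 (SE; limma adjusted p = 0.00125) and 2.28 ± 0.54 (adjusted p = 0.000993). MTF2 NPC had 1.31, 0 and 1.19 TPM with auxin and 0.755, 1.15 and 0.445 TPM untreated, and untagged NPC 0, 0.488 and 0.862 TPM with auxin and 0.522, 0.905 and 0.315 TPM untreated.

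Zic2 was the only one of the 6 called in 3 lines. JARID2 NPC had 45.1, 37.7 and 31.4 TPM with auxin, against 10.9, 13.2 and 12.2 TPM untreated. SUZ12 NPC had 35.5 and 34.4 TPM with auxin, against 4.68, 3.41 and 2.48 TPM untreated. MTF2 NPC had 13.2, 11.6 and 11 TPM with auxin, against 4.89, 5.76 and 5.4 TPM untreated. In each of the 3 lines every auxin library was above every untreated one, whereas untagged NPC overlapped, at 4.07, 3.26 and 4.69 TPM with auxin and 2.73, 4.16 and 2.9 TPM untreated. The log2 changes were 1.61 ± 0.18 in JARID2 (SE; limma adjusted p = 5.73e-07), 3.18 ± 0.20 in SUZ12 (adjusted p = 1.28e-11), 1.08 ± 0.18 in MTF2 (adjusted p = 0.000643) and 0.27 ± 0.18 in the untagged line (adjusted p = 0.801).

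Zic5, on the strand opposite to Zic2, had 5.56, 8.26 and 6.49 TPM in JARID2 NPC with auxin, against 0.835, 2.74 and 1.18 TPM untreated. It had 9.09 and 7.54 TPM in SUZ12 NPC with auxin, against 0.137, 0.472 and 0.142 TPM untreated. Both lines separated without overlap, by 1.89 ± 0.37 (SE; limma adjusted p = 0.000615) and 3.58 ± 0.41 (adjusted p = 2.16e-07) on the log2 scale. In MTF2 NPC the 0.439, 1.99 and 1.79 TPM with auxin overlapped the 0.378, 1.73 and 0.892 TPM without (0.32, 95% interval -0.45 to 1.10). The ratio of Zic2 to Zic5 TPM was 4.57 to 8.12 in JARID2 NPC with auxin, 3.91 to 4.56 in SUZ12 NPC with auxin, and 2.71 to 3.89 in the 24 ESC libraries.

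**Figure D3:**
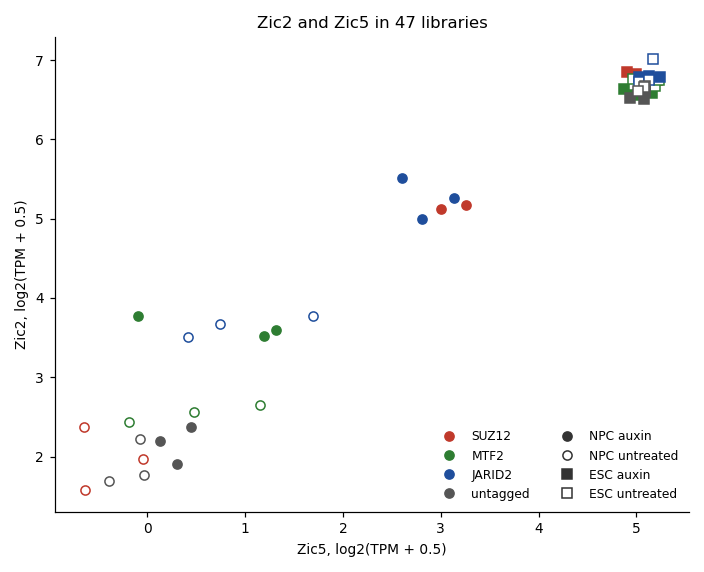
Zic2 against Zic5 as log2(TPM + 0.5) in the 47 libraries, with circles for NPC, squares for ESC, filled symbols for auxin and open symbols for untreated. SUZ12 and JARID2 NPC with auxin lie between the other NPC libraries and the ESC libraries, at 31.4 to 45.1 TPM of Zic2 and 5.56 to 9.09 TPM of Zic5.

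The size of the auxin change in a tagged line beyond that in the untagged line was tested as a difference of the 2 changes, so the 3 tests share the untagged libraries. JARID2 and SUZ12 each had 5 of 6 genes called higher, where 3.1% and 18.8% of genes were, and MTF2 had none, where 1.4% of genes were called in either direction. Fgf5 was among the 5 in both lines. It met the level filter in NPC only through the auxin libraries of those lines, so its inclusion was tied to its rise. In JARID2 the differences were 2.71 ± 0.46 for Fgf5 (SE; limma adjusted p = 0.000419), 1.92 ± 0.37 for Otx2 (adjusted p = 0.00146), 1.21 ± 0.30 for Pou3f1 (adjusted p = 0.011), 2.53 ± 0.68 for Hesx1 (adjusted p = 0.0195) and 1.34 ± 0.25 for Zic2 (adjusted p = 0.00112). With a pseudocount of 0.1 the calls of Otx2 (2.37, adjusted p = 0.0718) and Hesx1 (4.02, adjusted p = 0.0746) were lost. Zic5 missed the threshold there at 1.43 ± 0.52 (adjusted p = 0.0999) and passed it with a pseudocount of 1 (1.33, adjusted p = 0.0372). Without 1 library it was called at 1.80 (without JARID2 NPC untreated replicate 2, adjusted p = 0.0306), and Hesx1 was no longer called without untagged NPC untreated replicate 2 (2.32, adjusted p = 0.0567), untagged NPC auxin replicate 1 (2.12, adjusted p = 0.0645) or JARID2 NPC untreated replicate 3 (2.07, adjusted p = 0.062).

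SUZ12 exceeded the untagged line by 2.64 ± 0.49 for Fgf5 (SE; limma adjusted p = 0.00017), 1.64 ± 0.39 for Otx2 (adjusted p = 0.00187), 2.55 ± 0.72 for Hesx1 (adjusted p = 0.00648), 2.91 ± 0.27 for Zic2 (adjusted p = 1.34e-08) and 3.12 ± 0.56 for Zic5 (adjusted p = 0.000104). For Pou3f1 the difference was -0.21 (95% interval -0.86 to 0.44). In MTF2 no gene was called by limma or by voom on recovered reads, and 1 had an unadjusted p under 0.05, Zic2, at 0.82 ± 0.25 (SE; 95% interval 0.29 to 1.34, unadjusted p = 0.00391, adjusted p = 0.113).

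Set against each other, SUZ12 and JARID2 were called different in Pou3f1 and both Zic genes. The change in SUZ12 exceeded that in JARID2 by 1.57 ± 0.27 for Zic2 (SE; limma adjusted p = 0.000109) and by 1.69 ± 0.56 for Zic5 (adjusted p = 0.0247), and it was lower by -1.42 ± 0.31 for Pou3f1 (adjusted p = 0.0016), so 2 genes were called higher and 1 lower where 13.5% and 17.6% of genes were. The levels of both Zic genes with auxin overlapped between the 2 lines, whereas their untreated levels were lower in SUZ12. Zic2 averaged 35 TPM in SUZ12 and 38.1 TPM in JARID2 with auxin, and 3.52 and 12.1 TPM untreated. For Zic5 these means were 8.31 and 6.77 TPM with auxin, and 0.25 and 1.59 TPM untreated. The larger change in SUZ12 thus does not mean a higher level with auxin. The Zic5 call was lost without any 1 of 6 libraries (1.32 to 1.82, adjusted p = 0.0515 to 0.0953). Fgf5, Otx2 and Hesx1 were not called, at -0.08 (95% interval -1.10 to 0.94), -0.28 (-1.10 to 0.54) and 0.02 (-1.47 to 1.52). Their intervals still allow differences of more than 1 on the log2 scale.

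The SUZ12 change exceeded the MTF2 change in 5 of 6 genes, where 15.7% of genes were called higher: Fgf5 by 2.49, Otx2 by 1.09, Hesx1 by 2.40, Zic2 by 2.09 and Zic5 by 3.25. The MTF2 change was below the JARID2 change in 4 of 6, where 1.82% of genes were called lower: Fgf5 by -2.57, Otx2 by -1.37, Pou3f1 by -1.08 and Hesx1 by -2.38. Of these 9 calls, Otx2 for SUZ12 against MTF2 was lost without any 1 of 7 libraries (0.93 to 1.13, adjusted p = 0.0503 to 0.1), and Hesx1 without SUZ12 NPC auxin replicate 2 (2.12, adjusted p = 0.0584). A pseudocount of 0.1 ended both calls (2.06, adjusted p = 0.0588, for Otx2 and 3.60, adjusted p = 0.0524, for Hesx1), and a fit to the compared groups alone ended that of Otx2 (adjusted p = 0.0949). For MTF2 against JARID2, Otx2 was lost without MTF2 NPC untreated replicate 2 (-1.26), MTF2 NPC auxin replicate 1 (-1.21) or JARID2 NPC untreated replicate 1 (-1.25). It was also lost with a pseudocount of 0.1 (-1.28, adjusted p = 0.364), with voom (-1.33, adjusted p = 0.202) and in the fit to the compared groups alone (adjusted p = 0.0578). That fit ended the calls of Pou3f1 (adjusted p = 0.0558) and Hesx1 (adjusted p = 0.0723) as well, and a pseudocount of 0.1 that of Hesx1 (-3.85, adjusted p = 0.0838). Pou3f1 was lost without replicate 3 of MTF2 NPC untreated (-0.96), MTF2 NPC auxin (-0.83) or JARID2 NPC untreated (-0.93), and Hesx1 without any 1 of 5 libraries (-1.77 to -2.36, adjusted p = 0.0523 to 0.0767). Zic5 missed the threshold at -1.56 (adjusted p = 0.0642) and passed it with a pseudocount of 1 (-1.39, adjusted p = 0.0301) and without MTF2 NPC untreated replicate 1 (-1.90), MTF2 NPC auxin replicate 2 (-1.82) or JARID2 NPC untreated replicate 2 (-1.94). For Zic2 the MTF2 and JARID2 changes differed by -0.52 (95% interval -1.05 to 0.00, limma adjusted p = 0.213). In these counts too, Fgf5 met the level filter only through the auxin libraries of SUZ12 and JARID2.

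Measured against their own stem cells, Zic2, Zic5 and Hesx1 in NPC with auxin stayed below the ESC level. With auxin, Zic2 in NPC was 34.5% of its ESC mean in JARID2 and 31.3% in SUZ12, Zic5 19.5% and 26%, and Hesx1 7.96% and 7.3%. Untreated, Zic2 was 10.6% in JARID2, 3.3% in SUZ12 and 3.26% in the untagged line. Pou5f1 and Nanog, core and naive pluripotency factors, were 6.07% and 3.67% of ESC in JARID2 NPC with auxin and 21.9% and 14.9% in SUZ12 NPC with auxin. In JARID2 NPC with auxin the 12 naive genes ranged from 1.57% for Klf4 to 9.35% for Dppa3, so Zic2 and Zic5 stood above all 12 and Hesx1 within their range. Among core genes, Sox2, which neural progenitors also express, stood at 82.5%, Sall4 at 41.2%, Utf1 at 34.3% and Dppa4 at 25.8% there. The other core genes, Pou5f1, Dppa2 and Tdgf1, stood at 6.07%, 4.75% and 4.35%. In SUZ12 with auxin the naive genes ranged from 4.91% for Klf4 to 33.2% for Dppa3, and Zic2 and Zic5 lay within that range. Of its core genes, Utf1 at 82.3%, Dppa4 at 53.6%, Sox2 at 47.4% and Sall4 at 37.4% stood above both Zic genes. Pou5f1, Dppa2 at 19.5% and Tdgf1 at 15.1% stood below them.

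**Figure D4:**
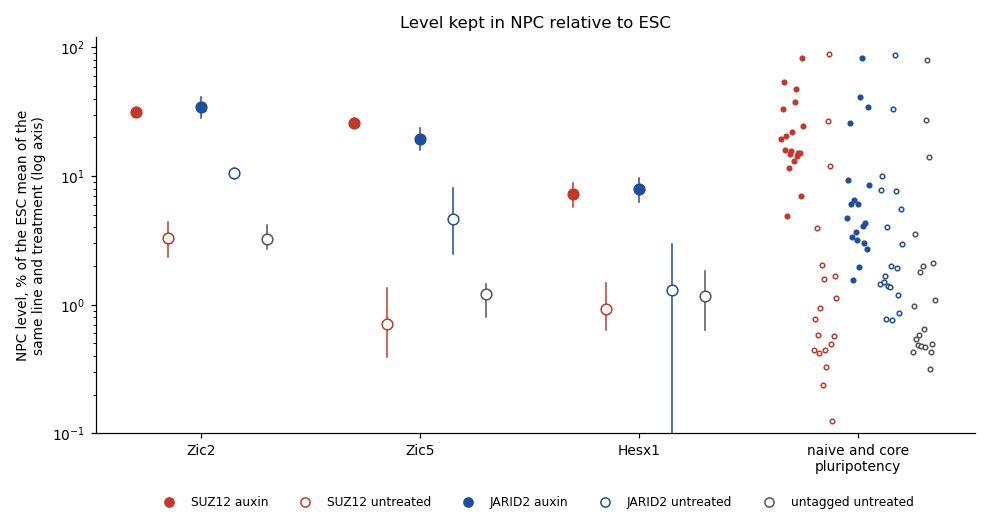
NPC level as a percentage of the ESC mean of the same line and treatment, on a log axis, for Zic2, Zic5, Hesx1 and 19 naive and core pluripotency genes. Vertical lines span the libraries (for Hesx1 in untreated JARID2 NPC the line reaches 0 and ends at the axis), and each small point is 1 pluripotency gene. Zic2 is at 31.3% in SUZ12 and 34.5% in JARID2 with auxin.

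Fgf5, Otx2 and Pou3f1 instead rose above their stem cell level. In JARID2 with auxin, NPC minus ESC was 2.23 ± 0.27 for Fgf5 (SE; limma adjusted p = 4.36e-09), 2.63 ± 0.25 for Otx2 (adjusted p = 6.89e-12) and 2.14 ± 0.19 for Pou3f1 (adjusted p = 1.14e-12) on the log2 scale, while Hesx1, Zic2 and Zic5 were lower by -3.51, -1.54 and -2.29. That made 3 of 6 higher and 3 lower, where 44.4% and 25.3% of 17760 genes were. For Pou3f1 the ESC reference was itself called lower with auxin, at 4.69 TPM, against 9.01 TPM in untreated JARID2 ESC. Its mean in JARID2 NPC with auxin, 22.3 TPM, was above both. SUZ12 with auxin had 1.96 ± 0.31 for Fgf5 (adjusted p = 8.03e-07), 1.29 ± 0.28 for Otx2 (adjusted p = 0.000117) and 0.58 ± 0.21 for Pou3f1 (adjusted p = 0.0165), and -3.64, -1.66 and -1.88 for Hesx1, Zic2 and Zic5, where 40.5% of genes were called higher and 21.6% lower. The Pou3f1 call in SUZ12 was lost with median-of-ratios scaling (0.39, adjusted p = 0.11), without ESC auxin replicate 3 (0.50, adjusted p = 0.0618) and without NPC auxin replicate 1 (0.50, adjusted p = 0.118).

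Fgf5 was not called in the other stage comparisons. In the untagged line with auxin, NPC was called lower than ESC for Fgf5 with a pseudocount of 0.1 (-1.80, limma adjusted p = 0.0134), median-of-ratios scaling (-0.64, adjusted p = 0.0319) and voom (-1.87, adjusted p = 0.0151), and for Otx2 with that scaling (-0.58, adjusted p = 0.0372) and voom (-1.78, adjusted p = 0.0325). Leaving out 1 library gave the same calls for Fgf5 (-0.70, without ESC auxin replicate 2) and for Otx2 (-0.86, without ESC auxin replicate 1, and -0.69, without NPC auxin replicate 2). Hesx1, Zic2 and Zic5 were called lower in each of them, by -4.15 to -6.12 on the log2 scale in the untreated lines and the untagged line with auxin apart from Zic2 in JARID2 (-3.18), and by -4.96, -2.96 and -4.20 in MTF2 with auxin. Otx2 was called higher in untreated JARID2 NPC (0.86 ± 0.25 SE, limma adjusted p = 0.00224) and lower in MTF2 NPC, untreated (-0.93 ± 0.25, adjusted p = 0.000985) and with auxin (-0.56 ± 0.25, adjusted p = 0.0418). The last of these was lost in 4 other settings (adjusted p = 0.0502 to 0.191) and without MTF2 ESC auxin replicate 1 (-0.51) or 2 (-0.41) or MTF2 NPC auxin replicate 1 (-0.40) or 2 (-0.52). Pou3f1 was called higher in untreated SUZ12 NPC (0.53 ± 0.19, adjusted p = 0.0109) and in untagged NPC with auxin (0.59 ± 0.19, adjusted p = 0.0054), and neither held with median-of-ratios scaling (0.14, adjusted p = 0.518, and 0.32, adjusted p = 0.127). The SUZ12 call was also lost without ESC untreated replicate 3 (0.39) or NPC untreated replicate 3 (0.45), and the untagged call without NPC auxin replicate 3 (0.39). Among all genes, 50.2% were called higher and 26.6% lower in untreated SUZ12, 26.7% lower in untreated MTF2, 47.1% higher and 26.3% lower in untreated JARID2, 25.6% lower in MTF2 with auxin, and 46.1% higher and 29% lower in the untagged line with auxin.

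In ESC, 12 hours of auxin changed 1 of the 5 genes tested, in 1 line. Fgf5 reached 1 TPM in 0 of 24 ESC libraries and was not tested there. Pou3f1 had 4.44, 5.32 and 4.3 TPM in JARID2 ESC with auxin, against 8.73, 8.74 and 9.55 TPM untreated, with no overlap, and fell by 0.88 on the log2 scale (SE 0.15, limma adjusted p = 0.00641), where 0.185% of 15104 genes were called lower. In a fit to those 2 groups alone the adjusted p was 0.0684. Beyond the untagged line, which had 5.43, 7.47 and 7.03 TPM with auxin and 8.4, 6.61 and 8.07 TPM untreated, the difference was -0.68 ± 0.21 (unadjusted p = 0.00475, adjusted p = 0.922). The sign in JARID2 ESC at 12 hours was opposite to that in JARID2 NPC after 5 days, and the difference between the stages was not tested.

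None of the 5 was called in SUZ12, MTF2 or untagged ESC with auxin, where limma called 6.83%, 1.09% and 0.212% of genes in either direction. At an unadjusted p under 0.05 stood Hesx1 in SUZ12 (0.32, limma adjusted p = 0.0802), Zic2 in MTF2 (-0.14, adjusted p = 0.341) and Hesx1 in the untagged line (0.28, adjusted p = 0.516), and voom on recovered reads called Hesx1 in SUZ12 (0.28, adjusted p = 0.0349). Beyond the untagged line none was called by limma or voom in SUZ12, MTF2 or JARID2, where limma called 0.192%, 0.00662% and 0% of genes. There Zic2 in SUZ12 (0.17, limma adjusted p = 0.411) and Pou3f1 in JARID2 had an unadjusted p under 0.05. Zic2 had 107, 115 and 113 TPM in SUZ12 ESC with auxin, against 107, 109 and 104 TPM untreated, and these overlapped. Between the 3 tagged lines limma called none of the 5 auxin changes different in ESC, where 0.0265% of genes were called for SUZ12 against MTF2, 0.139% for SUZ12 against JARID2 and 0% for MTF2 against JARID2. Those with an unadjusted p under 0.05 were Zic2 for SUZ12 against MTF2 (0.20, limma adjusted p = 0.353) and Pou3f1 for SUZ12 against JARID2 (0.72, adjusted p = 0.208) and for MTF2 against JARID2 (1.04, adjusted p = 0.171).

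Tagged lines without auxin already differed from the untagged line. JARID2 NPC had 3 of 6 genes called higher, where 11.8% of genes were: Zic2 by 1.76 ± 0.18 (SE; limma adjusted p = 1.7e-07), Otx2 by 1.36 ± 0.26 (adjusted p = 0.000498) and Zic5 by 1.12 ± 0.37 (adjusted p = 0.0313). The levels were 10.9 to 13.2 TPM in untreated JARID2 NPC and 2.73 to 4.16 TPM in untreated untagged NPC for Zic2, and 0.725 to 1.14 TPM and 0 to 0.126 TPM for Otx2, without overlap. For Zic5 the call was lost without any of the 3 untreated untagged NPC libraries (adjusted p = 0.0552 to 0.1) and without JARID2 NPC untreated replicate 2 (0.75, adjusted p = 0.193), without the filter on low values (adjusted p = 0.051) and in a fit to the compared groups alone (adjusted p = 0.0636). The level of Zic2 and Otx2 in JARID2 NPC was thus above the untagged one without auxin. Other markers differed there too, with 8 of 12 naive genes called higher and 10 of 10 neuronal genes lower in untreated JARID2 NPC than in untreated untagged NPC, and their part in this difference was not tested.

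In untreated MTF2 NPC, Zic2 was called higher by 0.65 ± 0.18 (SE; limma adjusted p = 0.0241; 6.19% of genes were higher), and this was lost without untagged NPC untreated replicate 1 (0.55, adjusted p = 0.0874) or 3 (0.59, adjusted p = 0.106) and without MTF2 NPC untreated replicate 2 (0.60, adjusted p = 0.0829) or 3 (0.65, adjusted p = 0.0639). It was also lost with voom (0.69, adjusted p = 0.0754) and in a fit to the compared groups alone (adjusted p = 0.0601). In untreated SUZ12 NPC none of the 6 was called, where 0.814% of genes were, and none had an unadjusted p under 0.05 or was called by voom. Untreated MTF2 ESC had less Hesx1, at 25.4, 35.5 and 34.1 TPM, against 50.1, 45.5 and 53 TPM in untagged ESC, a log2 difference of -0.65 ± 0.11 (adjusted p = 0.0002), where 8.39% of genes were called lower. Its Otx2 was 0.893 to 1.18 TPM, against 0.326 to 0.475 TPM in untagged ESC, which was not called (0.77 ± 0.32, adjusted p = 0.107), and it met the level filter in ESC only through 3 MTF2 libraries, the line where it was highest. None of the 5 was called in untreated SUZ12 or JARID2 ESC, where 1.65% and 6.31% of genes were, and the nearest was Zic2 in JARID2 (0.18 ± 0.06, unadjusted p = 0.00446, adjusted p = 0.0622), which was called with voom (0.18, adjusted p = 0.0248), with median-of-ratios scaling (0.19, adjusted p = 0.0263) and without JARID2 ESC untreated replicate 2 (0.23) or 3 (0.21).

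Other genes of the early epiblast did not move as a block with auxin in NPC. Of 16 listed companions, 8 were called higher and 3 lower in JARID2 (median log2 change 0.50), 8 higher and 6 lower in SUZ12 (0.32), 4 higher and 0 lower in MTF2 (0.18) and 0 in either direction in the untagged line (-0.03). Dnmt3b had 60.2 ± 7.74 TPM in JARID2 NPC with auxin and 22.9 ± 0.301 TPM untreated (SD, n = 3 each), and 35.9 ± 1.59 TPM with auxin (n = 2) and 12.4 ± 1.19 TPM untreated (n = 3) in SUZ12. Its JARID2 level in NPC was above the 35.3 ± 2.13 TPM of JARID2 ESC with auxin, by 0.75 ± 0.08 on the log2 scale (SE; limma adjusted p = 1.36e-10).

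Lin28a, an RNA-binding protein gene that blocks let-7 maturation, averaged 318 ± 13.2 TPM in JARID2 NPC with auxin and 193 ± 19.4 TPM untreated, a log2 change of 0.72 ± 0.06 (SE; limma adjusted p = 1.28e-08). Lef1, Tcf15, Pim2 and Etv5 were also called higher in both lines, Tcf15 by 1.61 in JARID2 and 2.57 in SUZ12. The epithelial factor Grhl2 was called in SUZ12 (1.99) and missed the threshold in JARID2 (0.69, adjusted p = 0.0893). Sox3, Sall2 and Cdh2, which neural progenitors also express, fell in both lines, Sox3 by 0.31 in JARID2 and by 2.58 in SUZ12 on the log2 scale.

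**Figure D5:**
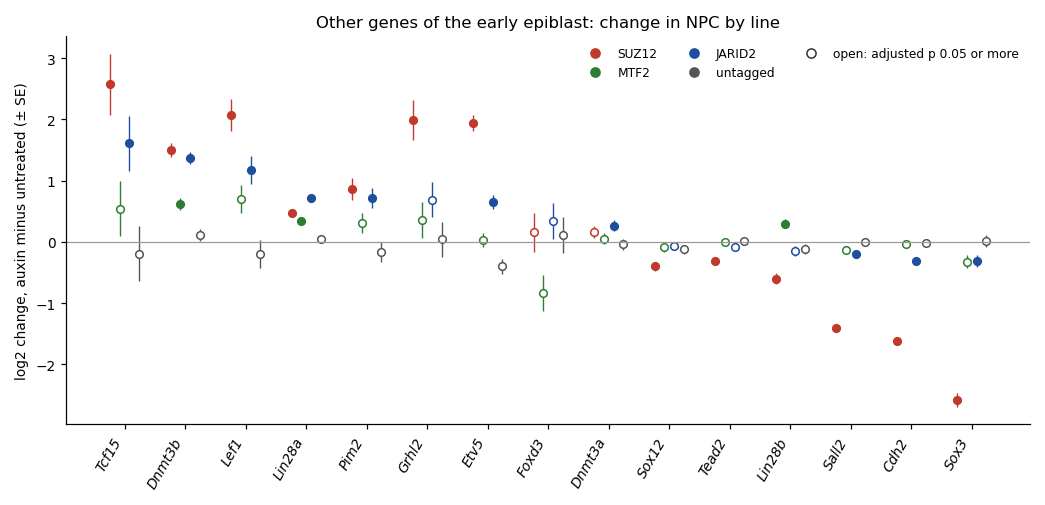
Log2 change with auxin in NPC (limma, ± SE) of 15 of the 16 other genes of the early epiblast, ordered by the change in JARID2, with filled points for an adjusted p under 0.05. Tcf15, Dnmt3b and Lef1 lie above 1 in both SUZ12 and JARID2, and Sox3, Cdh2 and Sall2 lie below 0 in both.

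The paralogs of the 6 genes split by family. Of 12, 8 could be tested in NPC, and 5 were called higher and 3 lower in both JARID2 and SUZ12. The FGF ligand genes Fgf4, Fgf8 and Fgf15 rose, by 1.78, 1.54 and 1.45 in JARID2 and by 4.31, 1.48 and 2.02 in SUZ12 on the log2 scale. Zic1 rose by 0.79 in JARID2 and by 3.84 in SUZ12. Of the class III POU genes of the neural tube, Pou3f2 had 16.5 ± 2.04 TPM in JARID2 NPC with auxin and 31.7 ± 2.26 TPM untreated (SD, n = 3 each), and fell by 0.92 there and by 3.22 in SUZ12, while Pou3f3 fell by 1.49 and 2.72 and Pou3f4 by 1.08 and 2.45. Their paralog Pou3f1 was called higher in JARID2 and was not called in SUZ12.

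Markers of other states moved in the same libraries, and their part in the rise of the 6 genes was not tested. With auxin, the 10 neuronal genes were all called lower in JARID2 and in SUZ12, summing to 812 to 896 TPM in JARID2 NPC with auxin and 2574 to 3037 TPM untreated, and to 491 to 544 TPM and 4924 to 5199 TPM in SUZ12. Of 10 neural progenitor genes, 6 were lower and 1, Pax6, higher in JARID2, and 10 were lower in SUZ12, with sums of 1162 to 1218 TPM with auxin and 1533 to 1824 TPM untreated in JARID2 and of 406 to 424 TPM and 2475 to 2578 TPM in SUZ12. Of 12 naive genes 7 were higher and 1 (Tbx3) lower in JARID2 and 11 were higher in SUZ12, summing to 136 to 157 TPM with auxin and 70.9 to 72.5 TPM untreated in JARID2, and to 566 to 583 TPM and 34.7 to 42.8 TPM in SUZ12. No naive gene was at 0 throughout a group.

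Genes of lineages outside the epiblast were counted or summed in the same way, and differences between the lines were not tested for these lists. Of 6 tested mesoderm and primitive streak genes, 0 were called in JARID2, with a summed level of 16.9 to 18.9 TPM with auxin and 16.7 to 17.4 TPM untreated, and 5 were called higher in SUZ12, at 167 to 168 TPM and 10.4 to 13.4 TPM. Of 7 tested trophectoderm genes, a list with Krt7, Krt8, Krt18 and Gata3, 5 were higher in JARID2, at 682 to 802 TPM with auxin and 373 to 465 TPM untreated, and 6 in SUZ12, at 1097 to 1177 TPM and 238 to 260 TPM. Of 8 tested genes of the dorsal neural tube, a list that also holds Zic1, 3 were higher in JARID2, at 12 to 13.9 TPM with auxin and 7.44 to 8.9 TPM untreated, and 5 in SUZ12, at 50.9 to 55.9 TPM and 7.39 to 9.11 TPM. Of the 10 mesoderm genes 3 were at 0 in all JARID2 libraries with auxin and 2 in those without, and 1 in each SUZ12 group. For endoderm and neural crest only sums are given, which a few abundant genes can set. The sums of the 9 endoderm genes listed went the other way, at 200 to 207 TPM with auxin and 269 to 292 TPM untreated in JARID2. In SUZ12 they were at 122 to 125 TPM and 197 to 208 TPM. The sums of the 8 neural crest genes listed overlapped in JARID2, at 35.9 to 48.9 TPM with auxin and 43.7 to 53.8 TPM untreated. In SUZ12 they were at 137 to 140 TPM and 38.8 to 43.1 TPM. The part of these lineages in the rise of the 6 genes was likewise not tested.

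The genes whose pattern was most like each member are given by Pearson's r of log2(TPM + 0.5) over the 23 NPC libraries among 14505 genes, as a description in which all points share lines, treatments and depth. The listed epiblast genes themselves and gene models with Gm or Rik names were left out, so Zic2 and Zic5 could not be named for each other. Zic2 was closest to Apoe (0.981), Spint1 (0.980) and Nid2 (0.980), and Otx2 to Akap12 (0.972), Gab1 (0.970) and Iqgap1 (0.964). Zic5 came nearest to Foxh1 (0.942), which encodes a cofactor of Nodal signalling, and then to Ftl1 (0.934) and Xrcc6 (0.931). Fgf5 was closest to Ftl1 (0.898), Hesx1 to Prps1 (0.869) and Pou3f1 to Neil2 (0.848). Over all 47 libraries, where the stage dominates, the nearest were Nid2 to Zic2 (0.993), Esrrb to Zic5 (0.987), Slc28a1 to Hesx1 (0.986), Itga6 to Otx2 (0.870), Cgn to Fgf5 (0.826) and Rras to Pou3f1 (0.762).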

How the data were processed

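The series holds 47 RNA-seq libraries of 4 mouse lines. The submitters' processing notes name STAR 2.6.1d and the mm10 build. The counting tool, its annotation and its use of strand have no source here. The deposited values are TPM per gene, made by the authors. Whole reads were recovered from the TPM steps for 100% of the 27296 genes above 0 (tolerance 0.001), giving 3237115 to 8707922 reads per library, and the number of reads limits the precision of the low genes. Groups follow the labels. For NPC of MTF2 and JARID2 the titles give a day that the other labels do not, and the other labels were followed. The linear models of limma 3.58.1 (R 4.3.3), with eBayes moderation that allowed a trend and was robust, were fitted to log2(TPM + 0.5) per stage over 8 groups, or over all 16 groups for NPC against ESC. Genes needed 1 TPM in at least 2 libraries of the fit, and p-values were adjusted over all genes tested by Benjamini-Hochberg. The procedure was tested on simulated data. Alternatives were scaling by median-of-ratios factors, pseudocounts of 0.1 and 1, leaving out the filter, fits to the compared groups alone, a replicate block, voom on the recovered reads, and each library left out in turn. The 6 genes and the 14 gene lists were chosen with earlier results of these data known. Other genes are named as members of those lists, or as the 3 with the highest Pearson's r to a member, leaving out the members and gene models with Gm or Rik names. Some genes counted in the lists are not reported here by name. Replicates are biological per the labels. The p-values set each difference against the spread between replicates, pooled over the groups of a fit. With the number of clones per line not given, they cannot be said to cover variation between clones.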

Additional observations from a re-analysis of the deposited data

Results flagged for a closer look

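The auxin change in NPC differed between lines in 22 tests of the 6 genes, each a difference of log2 changes past a limma adjusted p of 0.05. SUZ12 exceeded the untagged line by 2.64 for Fgf5, 1.64 for Otx2, 2.55 for Hesx1, 2.91 for Zic2 and 3.12 for Zic5. JARID2 exceeded the untagged line by 2.71 for Fgf5, 1.92 for Otx2, 1.21 for Pou3f1, 2.53 for Hesx1 and 1.34 for Zic2. SUZ12 exceeded MTF2 by 2.49 for Fgf5, 1.09 for Otx2, 2.40 for Hesx1, 2.09 for Zic2 and 3.25 for Zic5. SUZ12 minus JARID2 was -1.42 for Pou3f1, 1.57 for Zic2 and 1.69 for Zic5. MTF2 minus JARID2 was -2.57 for Fgf5, -1.37 for Otx2, -1.08 for Pou3f1 and -2.38 for Hesx1. These tests share libraries, the untagged ones in the first 10 and those of a tagged line in the rest. Among all genes, 18.8% were called higher for SUZ12 and 3.1% for JARID2 beyond the untagged line. SUZ12 against MTF2 had 15.7% higher, and SUZ12 against JARID2 13.5% higher and 17.6% lower. MTF2 against JARID2 had 1.82% lower. Several of the 22 calls were lost in other settings or without a library, as given above. Fgf5 met the level filter only through the auxin libraries of SUZ12 and JARID2.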

How the results depend on the processing

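Of 76 called results for the 6 genes, 583 of 606 refits under the other settings kept the call and 23 lost it, and 517 of 564 refits without a library kept it and 47 lost it, with no called result reversed in either. By result, 14 of the 76 lost the call in at least 1 other setting, and 14 without at least 1 library. The uncalled stage difference of Pou3f1 in the untagged line turned to -0.03 (limma adjusted p = 0.903) with median-of-ratios scaling. In ESC with auxin the count of 1 called result became 2 with voom and 0 in fits to the compared groups alone, and ranged from 1 to 2 without a library. For untreated tagged lines against the untagged line the count of 5 became 3 in fits to the compared groups alone and ranged from 3 to 6 without a library, with 3 without untagged NPC untreated replicate 1 or 3. Between tagged lines the count of 12 became 8 with a pseudocount of 0.1, 8 in fits to the compared groups alone and 11 with voom, and beyond the untagged line in NPC the count of 10 became 8 with a pseudocount of 0.1. The cause was not tested. Depth limits the precision of Fgf5, Otx2 and Hesx1 in NPC, with at most 18 reads in any NPC library except for Otx2 in JARID2 NPC with auxin, and of Zic5, with 1 to 3 reads per library in untreated SUZ12 NPC.

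Same-numbered libraries did not pair by the data, with correlations of their deviations of -0.036 to 0.117. With the replicate block, under either numbering of SUZ12 NPC with auxin, 12 results were called for auxin in NPC as without it, 11 in place of 10 beyond the untagged line in NPC, and 13 in place of 12 between tagged lines.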

Other observations

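Of 14 FGF receptor and ERK target genes in NPC with auxin, 5 were called higher and 1 lower in JARID2 (median log2 change 0.04), 9 higher and 2 lower in SUZ12 (0.82), 2 higher and 1 lower in MTF2 (0.15) and 0 in the untagged line (-0.10). Among all genes, 9.28% were called higher and 15.7% lower in JARID2, 23.9% and 33% in SUZ12, 5.03% and 3.11% in MTF2 and 0% in the untagged line. Etv4, an ETS factor induced by FGF, averaged 11 ± 1.2 TPM in JARID2 NPC with auxin and 3.83 ± 0.162 TPM untreated (SD, n = 3 each), and 57.1 ± 3.04 TPM (n = 2) and 4.69 ± 0.473 TPM (n = 3) in SUZ12. Fgfr3, an FGF receptor gene of neural progenitors, averaged 74.7 ± 3.72 TPM in JARID2 NPC with auxin and 112 ± 3.43 TPM untreated, and 11.7 ± 0.451 TPM and 114 ± 4.12 TPM in SUZ12, and it was called lower in JARID2, SUZ12 and MTF2. Spry2 and Egr1 rose in JARID2 by 0.69 and 0.80 and in SUZ12 by 0.76 and 0.88 on the log2 scale.

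Of 10 tested genes of the forebrain and midbrain, where Otx2 and Hesx1 act later, 1 was called higher and 1 lower in JARID2, Fezf2 at 1.32 ± 0.37 (SE; limma adjusted p = 0.0122) and Pax2 at -0.71 ± 0.23 (adjusted p = 0.0253). In SUZ12, 5 were higher and 1 lower, with -2.79 ± 0.26 for Lhx5 (adjusted p = 7.87e-09). In MTF2, 3 were higher and 2 lower, beside the same shares of all genes.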
